A study of Homo sapiens with 4 samples.

Results

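The cyclins of the D, E, A and B classes were followed in MIA PaCa-2 and PANC-1 cells, which are established human pancreatic cancer cell lines. The 8 genes were found by symbol from the Ensembl identifiers of the count table: CCND1, CCND2 and CCND3 of the D class, CCNE1 and CCNE2 of the E class, CCNA2 of the A class, and CCNB1 and CCNB2 of the B class. They are 8 of the 58233 genes in the table, and all 8 were matched. Cells of each line, wild type by the sample records, received cannabichromene (CBC), a non-psychoactive compound of the cannabis plant, or PBS. Poly(A) RNA was sequenced after 24 h. By the study's methods the dose was 35 µM CBC in MIA PaCa-2 cells and 30 µM CBC in PANC-1 cells, so the lines differed in dose as well as in origin, and CBC was dissolved in acetonitrile, whereas the records name the controls PBS. Each of the 4 conditions was 1 library, and no within-line difference could be checked against replicates.

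Cyclins are the regulatory subunits of the cyclin-dependent kinases (CDKs), and their levels set which kinase is active in which phase of the cell cycle. D cyclins bind CDK4 and CDK6 in response to growth signals and start the inactivation of the retinoblastoma protein, E cyclins bind CDK2 at the start of DNA synthesis, cyclin A2 binds CDK2 and then CDK1 through S phase and G2, and B cyclins bind CDK1 to drive mitosis. CCND1 and CCNE1 are known as oncogenes that are amplified or overexpressed in many carcinomas, pancreatic cancer among them.

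Genes of the late cell cycle are known to share promoter elements: CCAAT boxes bound by the factor NF-Y, and the CHR element (TTTGAA or TTCGAA) bound by the DREAM and MYB-MuvB complexes. The stretch from 250 to 21 bases before the start of the gene is therefore shown for the cyclins of the A and B classes, which were lower together after CBC, and for CCNE1, whose response differed most between the lines among the cyclins with well-covered counts. The sequences are from RefSeq on GRCh38.p14 and run 5′ to 3′ along the gene's own strand. Distances count from the RefSeq start of the gene. For CCNB1 and CCNB2 it lies downstream of the gene start printed further below. Their stretches end at 69167129 and 59105125, close to those printed starts of 69167135 and 59105126. Capitals mark CCAAT on either strand, so that the reverse match reads ATTGG, and the CHR letters TTTGAA or TTCGAA.
CCNB2, chr15:59104896-59105125, plus strand: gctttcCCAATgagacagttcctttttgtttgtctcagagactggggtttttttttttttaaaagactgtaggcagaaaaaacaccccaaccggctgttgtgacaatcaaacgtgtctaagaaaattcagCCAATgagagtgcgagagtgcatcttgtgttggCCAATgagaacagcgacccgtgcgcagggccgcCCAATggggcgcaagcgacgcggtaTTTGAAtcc
CCNB1, chr5:69166900-69167129, plus strand: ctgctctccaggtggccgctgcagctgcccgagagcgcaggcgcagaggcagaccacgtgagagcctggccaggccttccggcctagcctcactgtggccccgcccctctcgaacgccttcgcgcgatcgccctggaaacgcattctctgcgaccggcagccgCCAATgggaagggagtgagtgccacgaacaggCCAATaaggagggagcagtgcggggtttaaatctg
CCNA2, chr4:121823904-121824133, minus strand: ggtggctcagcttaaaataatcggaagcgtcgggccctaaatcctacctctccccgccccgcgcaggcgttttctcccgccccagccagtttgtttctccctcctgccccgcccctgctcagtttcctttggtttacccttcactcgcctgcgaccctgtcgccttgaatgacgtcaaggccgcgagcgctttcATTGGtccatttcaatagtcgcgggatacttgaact
CCNE1, chr19:29811741-29811970, plus strand: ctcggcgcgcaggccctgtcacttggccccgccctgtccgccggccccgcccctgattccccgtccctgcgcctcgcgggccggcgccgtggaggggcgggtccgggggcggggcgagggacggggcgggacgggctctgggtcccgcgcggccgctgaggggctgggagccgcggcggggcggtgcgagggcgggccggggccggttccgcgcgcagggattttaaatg

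The CCNB2 stretch held 4 CCAAT matches, whose first bases lie 244, 120, 87 and 54 bases before the start, and a TTTGAA 29 bases before it. CCNB1 held 2 CCAAT matches, 87 and 55 bases before the start, at nearly the spacing of the last pair in CCNB2, and also 1 TTCGCGC, an E2F-like sequence. CCNA2 held 1 CCAAT match, on the reverse strand at 56 bases, next to TGACGT, the core of a cyclic AMP response element, on both strands in overlapping positions. CCNE1 held no CCAAT and 7 matches of GGGCGG, the GC box. Fewer matches of GGGCGG were also present in the CCNA2, CCNB1 and CCNB2 stretches. Of the 35116 stretches of the same length in the RefSeq table, 30.7% held a CCAAT, 8.87% held at least 2 and 0.780% held at least 4. TTTGAA was in 12.6%, TTCGAA in 1.12%, GGGCGG in 40.0% and TGACGT in 6.37%, and among the E2F-like sequences TTCGCGC was in 1.68%, TTGGCGC in 2.33%, TTCCCGC in 5.03% and TTGCCGC in 1.69%. TGANTCA, the letters bound by AP-1, was in 6.20% of all stretches and in none of these 4. Both strands were searched. Neither TTTGAA nor TTCGAA was found in the CCNB1, CCNA2 or CCNE1 stretch, and the bases nearer than 21 to the start were not searched. CCND3 had 3 stretches in the table, with a CCAAT in 2 of them, and the table gave none for CCND1, CCND2 and the other E cyclin. A match of letters is a description of the sequence, not a bound site.

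The libraries held 21742775 to 27903667 counts, so the 3 counts that a count of 0 allows correspond to 0.11 to 0.135 CPM (counts scaled to a common library size). Intervals given here are 95% intervals and cover counting error only. Those of a ratio between libraries are exact binomial (Clopper-Pearson) intervals. Those of a level in a single library are exact Poisson intervals. Those of the difference in CBC response between the lines are exact conditional intervals. The keratin genes KRT8, KRT18 and KRT19 and the mesenchymal gene VIM were high in all 4 libraries, but KRT7 had only 2 to 58 counts, and the adhesion genes EPCAM and CDH1 had 0 or 1 count in MIA PaCa-2 cells and 32 to 264 counts in PANC-1 cells. Markers of islet, acinar, leukocyte and endothelial cells had 0 counts, except 1 count of PRSS1 in a PANC-1 library, and the fibroblast genes PDGFRA and PDGFRB had at most 5 and 54 counts. The share of counts on mitochondrial genes was 5.81% in the MIA PaCa-2 control and 3.86% after CBC, and 4.63% and 2.42% in PANC-1 cells; its part in the cyclin differences was not tested.

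CBC-treated cells had lower levels of 7 of the 8 cyclins in both lines, and CCND2 was the exception. After scaling by the TMM method (a trimmed mean of log ratios), genes at 1 CPM or more in either library of a comparison were counted, and those with a log2 fold change past 1 in size were called. In MIA PaCa-2 cells 4 of the 8 cyclins were called lower, against 8.97% of the 14001 genes counted, and 1 was called higher, against 11.5%. In PANC-1 cells 5 were called lower, against 7.03% of 14091 genes, and 1 was called higher, against 7.71%. The median of the cyclins on the log2 scale was −0.9996 for MIA PaCa-2 and −1.28 for PANC-1, where the medians of all genes counted were −0.01 and 0.02. CCND2 passed the filter only through the CBC libraries, where it was high. In bulk RNA, fewer cells in the phase that expresses a cyclin and less of its RNA per cell cannot be told apart.

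Across the lines, CBC was compared with PBS in 1 fit over the 4 libraries, blocked by cell line, which left 1 residual degree of freedom. By edgeR's quasi-likelihood test with Benjamini-Hochberg adjustment over 16381 genes, CCND3, CCNE2, CCNA2 and CCNB1 fell and CCND2 was called higher. These are 4 cyclins called lower, against 2.45% of all genes tested, and 1 called higher, against 2.26%. CCND1, CCNE1 and CCNB2 did not pass, although DESeq2's Wald test called CCND1 and CCNB2 lower (adjusted p = 0.0322 and 0.00592). The plot of cyclin responses in each line shows the values behind these calls.

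**Figure D1:**
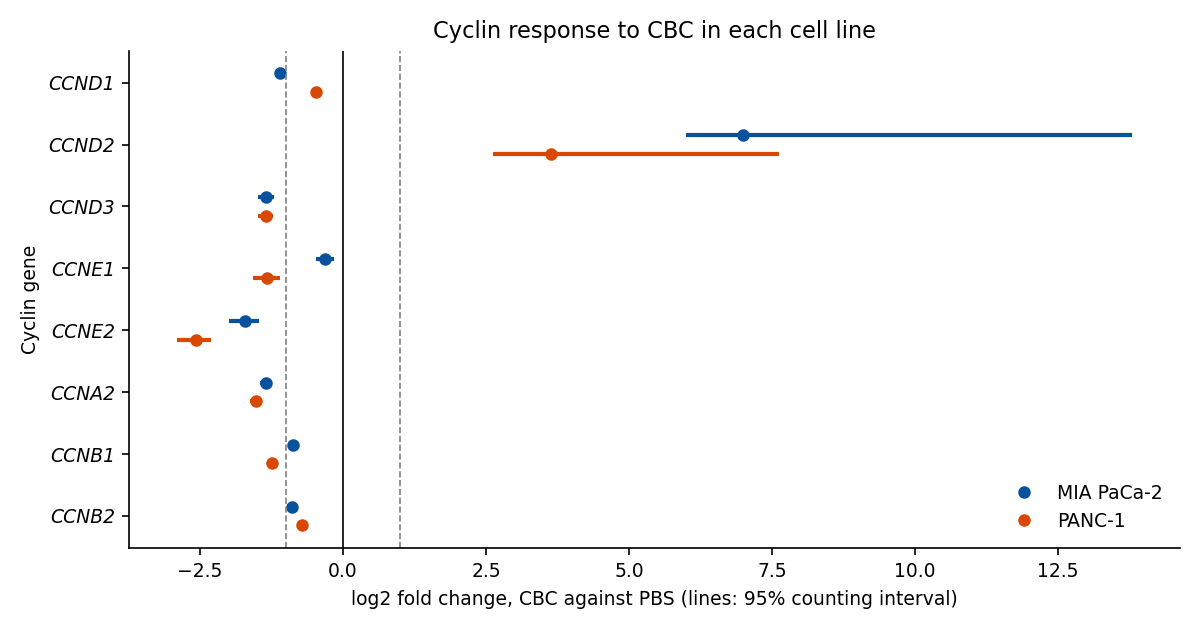
The x axis gives the log2 fold change of each cyclin, CBC against PBS, with points for MIA PaCa-2 (blue) and PANC-1 (orange), horizontal lines for the 95% counting interval and dashed lines at −1 and 1. All points but those of CCND2 lie left of 0, and CCND2 lies at 6.995 and 3.65 with intervals that are wide because its control counts are 1 and 2.

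Among the D cyclins, CCND1 (ENSG00000110092, GRCh38 chromosome 11, 69641156 to 69654474, plus strand) encodes cyclin D1, the main sensor of mitogenic signals in epithelial cells. Its level was 169 CPM in the MIA PaCa-2 control, 79.0 CPM after CBC, 451 CPM in the PANC-1 control and 323 CPM after CBC. Both PANC-1 libraries were above both MIA PaCa-2 libraries, and in each line the CBC library was the lower one. The log2 fold change was −1.10 (interval −1.18 to −1.02) in MIA PaCa-2 cells, past the threshold, and −0.48 (−0.52 to −0.44) in PANC-1 cells, short of it. Over both lines the fitted log2 fold change was −0.78 ± 0.21 (SE), which did not pass in edgeR's quasi-likelihood test (adjusted p = 0.0859).

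CCND2 (ENSG00000118971, chromosome 12, 4269771 to 4305353, plus strand) encodes cyclin D2, which is silenced in many carcinoma lines. In MIA PaCa-2 it had 1 count with PBS against 400 with CBC, and in PANC-1 it had 2 counts with PBS against 56 with CBC. It was at the edge of detection in both controls and clearly present in both CBC libraries, at 16.2 CPM and 2.05 CPM. The ratio of CBC to PBS after scaling was 360 (64.2 to 14240) in MIA PaCa-2, against 23.3 (6.16 to 197) in PANC-1. The fitted log2 fold change over both lines was 6.71 ± 0.86 (adjusted p = 0.0122 in edgeR's quasi-likelihood test). Because CCND2 entered this test only through the CBC libraries, where it was high, the call adds nothing to the counts themselves. The antisense gene CCND2-AS1 had 7 counts in CBC-treated MIA PaCa-2 cells and 0 in the other libraries, and the processed copy CCND2P1 had 0 in all 4.

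CCND3 (ENSG00000112576, chromosome 6, 41934934 to 42050357, minus strand) encodes cyclin D3. It stood at 62.5 CPM in the MIA PaCa-2 control and 62.7 CPM in the PANC-1 control, and at 24.7 CPM and 24.6 CPM after CBC. The lines had nearly the same level before treatment and again after it. The log2 fold change was −1.34 (−1.48 to −1.20) in MIA PaCa-2, against −1.35 (−1.49 to −1.22) in PANC-1, and CCND3 fell over both lines, with a fitted log2 fold change of −1.34 ± 0.23 (edgeR's quasi-likelihood test, adjusted p = 0.0230). The 3 D cyclins thus differed: a shared decrease of CCND3, a higher CCND2 level from almost no counts, and an unevenly lower CCND1 level. CCND1 was lower in both lines, by the larger fold change in MIA PaCa-2 cells.

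The E cyclins also differed from each other. CCNE1 (ENSG00000105173, chromosome 19, 29811991 to 29824312, plus strand) encodes cyclin E1 and had 712 counts in the MIA PaCa-2 control, 640 after CBC, 464 in the PANC-1 control and 221 after CBC. After scaling, the CBC library of MIA PaCa-2 cells, at 25.9 CPM, was still above the PANC-1 control, at 20.4 CPM, and CBC-treated PANC-1 cells stood lowest, at 8.09 CPM. The log2 fold change was −0.31 (−0.46 to −0.15) in MIA PaCa-2 cells, the smallest of the 8, and −1.33 (−1.57 to −1.10) in PANC-1 cells. The fitted value over both lines was −0.80 ± 0.33 and did not pass in edgeR's quasi-likelihood test (adjusted p = 0.217).

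CCNE2 (ENSG00000175305, chromosome 8, 94879770 to 94896678, minus strand) encodes cyclin E2, a target of the E2F factors with the same kinase partner as cyclin E1. Its counts were 467 in the MIA PaCa-2 control and 157 after CBC, and 574 in the PANC-1 control and 114 after CBC. Both CBC libraries were far below both controls. The log2 fold change was −1.71 (−1.996 to −1.46) in MIA PaCa-2, against −2.57 (−2.90 to −2.30) in PANC-1, the largest decrease among the 8 cyclins in each line. CCNE2 fell over both lines, with a fitted value of −2.15 ± 0.36 (edgeR's quasi-likelihood test, adjusted p = 0.0213). CCNE2 overlaps INTS8 and NDUFAF6 on the opposite strand, and these had 727 to 1269 counts and 198 to 229 counts. The library kit was directional, but whether strand was used in counting is not given in the sources used here, so reads of overlapping genes may not be fully separated for CCNE2, for CCND1 with LTO1 and for CCNA2 with EXOSC9.

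CCNA2 (ENSG00000145386, chromosome 4, 121816444 to 121823883, minus strand) encodes cyclin A2, the A cyclin of dividing somatic cells. Its level was 132 CPM in the MIA PaCa-2 control and 51.9 CPM after CBC, and 122 CPM in the PANC-1 control and 42.3 CPM after CBC. The treated libraries lay close together and well below the controls. The log2 fold change was −1.35 (−1.44 to −1.25) in MIA PaCa-2, against −1.52 (−1.63 to −1.43) in PANC-1, and CCNA2 fell over both lines, with a fitted value of −1.43 ± 0.21 (edgeR's quasi-likelihood test, adjusted p = 0.0168). EXOSC9, on the opposite strand, had 634 to 980 counts.

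CCNB1 (ENSG00000134057, chromosome 5, 69167135 to 69178245, plus strand) encodes cyclin B1, which with CDK1 forms the main mitotic kinase. It was at 415 CPM in each control, at 225 CPM in CBC-treated MIA PaCa-2 cells and at 176 CPM in CBC-treated PANC-1 cells. After TMM scaling the controls could not be told apart by counting error, and the decrease was larger in PANC-1 cells. The log2 fold change was −0.88 (−0.93 to −0.84) in MIA PaCa-2 cells, short of the threshold, and −1.24 (−1.29 to −1.19) in PANC-1 cells. Over both lines CCNB1 fell, with a fitted value of −1.05 ± 0.20 (edgeR's quasi-likelihood test, adjusted p = 0.0289).

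CCNB2 (ENSG00000157456, chromosome 15, 59105126 to 59125045, plus strand) encodes cyclin B2, which is found at the Golgi apparatus and is expressed with cyclin B1. Its counts were 2940 and 1752 in the MIA PaCa-2 libraries without and with CBC, and 2474 and 1804 in those of PANC-1. The CBC libraries were again the lower ones, by less than for CCNA2. Its log2 fold changes were −0.90 (−0.99 to −0.81) in MIA PaCa-2, against −0.72 (−0.81 to −0.63) in PANC-1, within the threshold in both. The fitted value was −0.80 ± 0.21 and did not pass in edgeR's quasi-likelihood test (adjusted p = 0.0725). The plot of cyclin levels by library sets the 8 genes side by side.

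**Figure D2:**
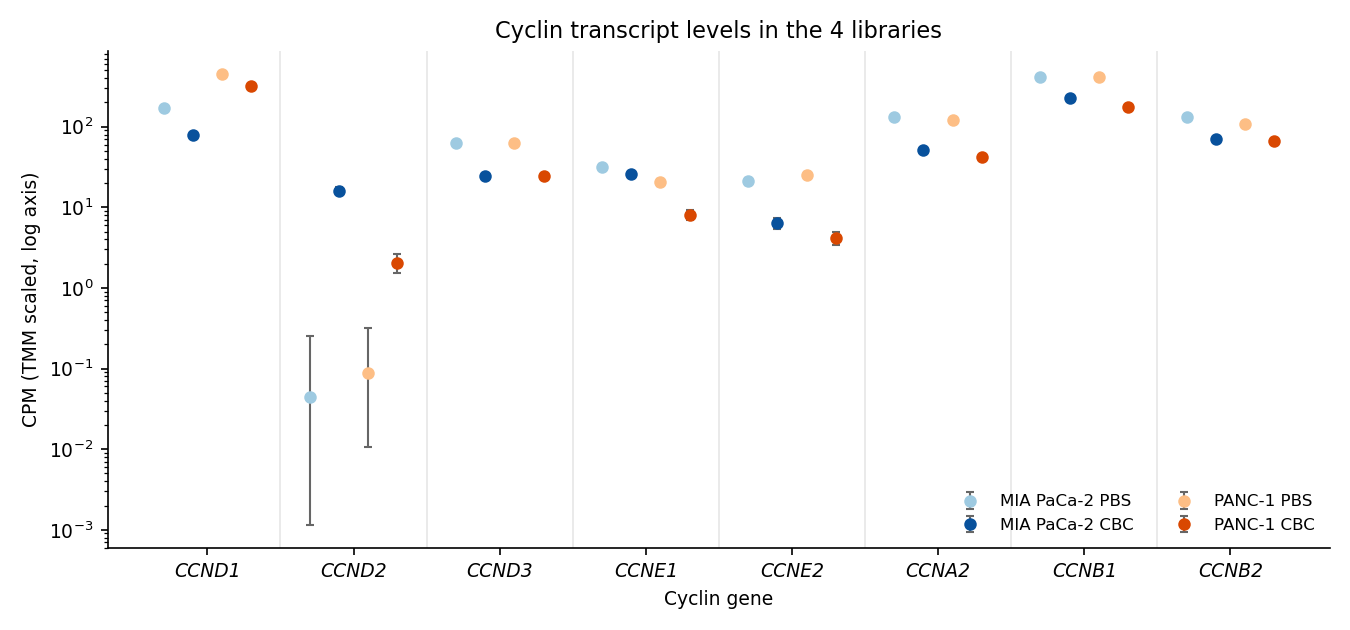
The y axis, on a log scale, gives the TMM-scaled CPM of each cyclin in the 4 libraries, with 1 point per library and bars for the 95% counting interval. For 7 cyclins the dark CBC points lie below the pale PBS points of their line, while CCND2 climbs from under 0.1 CPM to 16.2 and 2.05 CPM.

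Levels were compared between cyclins as CPM per kilobase of exon. CCNB1 was the highest cyclin in all 4 libraries, at 171 and 170 CPM per kb in the MIA PaCa-2 and PANC-1 controls and at 92.5 and 72.2 CPM per kb after CBC. CCND1 was second in PANC-1 cells, at 94.6 CPM per kb in the control and 67.9 CPM per kb after CBC, but below CCNB1, CCNA2 and CCNB2 in MIA PaCa-2 cells, at 35.6 and 16.6 CPM per kb. After CBC the gap between CCNB1 and CCND1 in PANC-1 cells was therefore small. CCND2 was the lowest in 3 libraries, and CCNE2 was the lowest in CBC-treated MIA PaCa-2 cells, at 1.44 CPM per kb against 2.02 CPM per kb for CCND2. Of the 28 neighbouring pairs in the 4 orders, the counting intervals overlapped in 1, CCNA2 and CCNB2 in the MIA PaCa-2 control at 48.1 and 48.0 CPM per kb. The order rests on the exon lengths used.

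The B class made up most of the cyclin RNA in every library. The levels per kilobase of the 8 cyclins summed to 331 in the MIA PaCa-2 control and 172 after CBC, and to 374 in the PANC-1 control and 188 after CBC. In PANC-1 cells the share of the D class was 28.2% before and 38.5% after CBC, and that of the B class 56.2% and 51.1%. In MIA PaCa-2 cells the D share was 14.0% and 13.3% and the B share 66.1% and 68.7%. The D and B shares thus went in opposite directions in the lines. The A share was lower after CBC in both, at 14.5% without and 10.99% with CBC in MIA PaCa-2 and at 11.8% and 8.18% in PANC-1, whereas the E share went from 5.38% to 6.95% and from 3.75% to 2.25%. With 1 library per condition these shares were not tested.

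**Figure D3:**
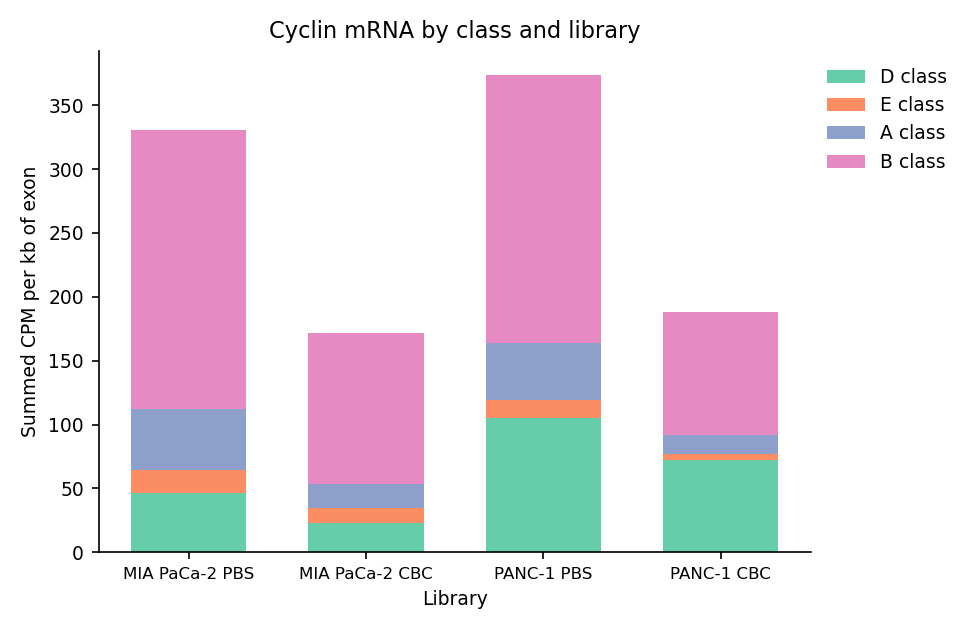
The bars give the summed level of the 8 cyclins in each library, in TMM-scaled CPM per kilobase of exon, stacked by class. Without and with CBC the sums are 331 and 172 for MIA PaCa-2 and 374 and 188 for PANC-1, and the D class takes 38.5% of the CBC-treated PANC-1 bar.

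At baseline the lines differed mainly in CCND1. In the PBS libraries CCND1 was 2.66-fold (2.56 to 2.76) higher in PANC-1 cells, a log2 difference of 1.41, and it was the only cyclin of the 7 counted that was called in this comparison. Of 14805 genes counted, 24.0% were called higher in PANC-1 cells and 18.0% lower, so 1 cyclin higher and 0 lower of 7 is not above the share of all genes. CCND2, with 1 and 2 counts, was not counted. CCNE1 was lower in PANC-1 cells by a log2 difference of −0.65 (−0.82 to −0.48) and CCNB2 by −0.28 (−0.36 to −0.20), whereas CCNE2 was at 0.26 (0.09 to 0.44) and CCNA2 at −0.12 (−0.19 to −0.04). The intervals of CCND3 (−0.10 to 0.11) and CCNB1 (−0.04 to 0.04) held 0, but they cover counting error and not the choice of scaling. With library totals in place of TMM, the differences were −0.127 for CCND3 and −0.133 for CCNB1, outside these intervals.

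Over both treatments, with treatment as the block, edgeR's quasi-likelihood test called CCND1 higher in PANC-1 cells by 1.66 ± 0.22 on the log2 scale (adjusted p = 0.000723). CCNE1 was called lower in PANC-1 cells, with a fitted difference of −1.22 ± 0.33 (adjusted p = 0.0189), and CCND2 was called lower as well, at −2.61 ± 0.75 (adjusted p = 0.0233). The call of CCND2 rests on the CBC libraries alone, since the controls held 1 and 2 counts, and DESeq2's Wald test did not make it (adjusted p = 0.264). In this fit 25.1% of all genes tested were called higher in PANC-1 cells and 21.7% lower, and 1 and 2 of the 8 cyclins were.

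**Figure D4:**
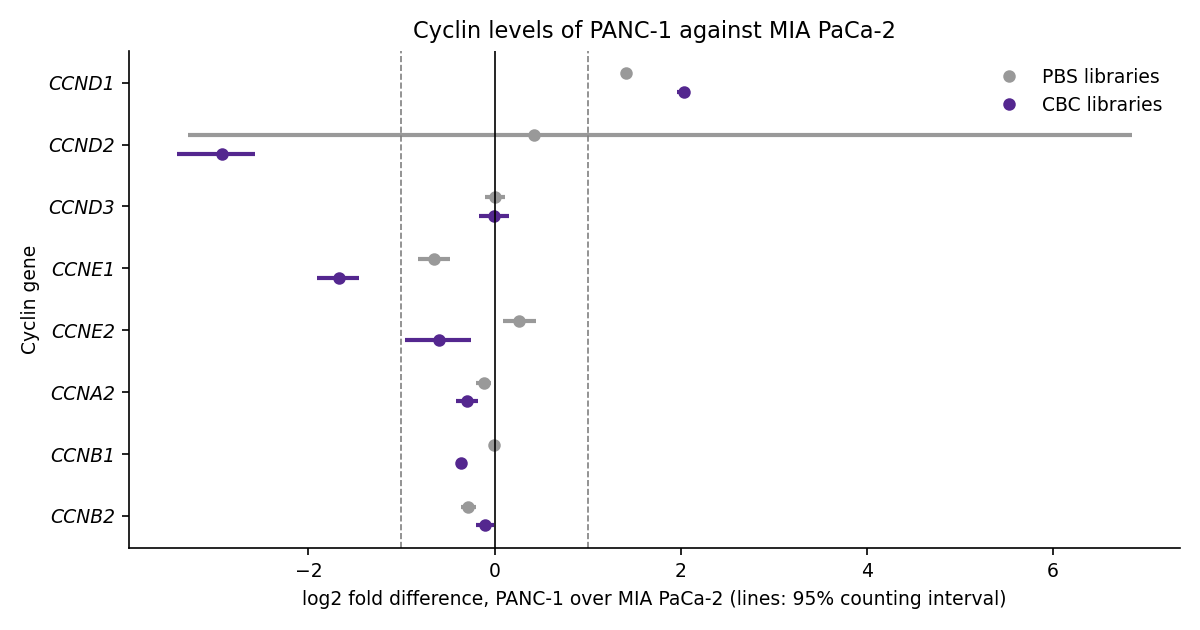
The x axis gives the log2 difference of each cyclin, PANC-1 over MIA PaCa-2, in the PBS libraries (grey) and the CBC libraries (purple), with 95% counting intervals as horizontal lines and dashed lines at −1 and 1. CCND1 lies at 1.41 without and 2.03 with CBC, CCNE1 moves from −0.65 to −1.67, and CCND3 stays near 0.

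The responses of the lines to CBC were then compared as the log2 fold change in PANC-1 minus that in MIA PaCa-2 cells. A negative value means a stronger decrease in PANC-1 cells. The counting interval left out 0 for 6 of the 8 cyclins, 4 with a negative and 2 with a positive value. Of the 15590 genes at 1 CPM or more in any library, it was negative for 27.0% and positive for 27.3%, so at this depth such an interval is common among all genes. The negative ones were CCNE1 at −1.02 (−1.31 to −0.74), CCNE2 at −0.86 (−1.28 to −0.47), CCNB1 at −0.36 (−0.43 to −0.29) and CCNA2 at −0.18 (−0.32 to −0.04), which are the S phase and mitotic cyclins other than CCNB2. CCND1 was at 0.62 (0.53 to 0.71) and CCNB2 at 0.18 (0.06 to 0.30), that is, lower by less in PANC-1 cells. The value of CCND3 was −0.01 (−0.20 to 0.19), and that of CCND2 was −3.35 with an interval from −9.83 to 0.35, too wide to place. The spread between cultures is not in these intervals, and with no residual degrees of freedom the difference between the lines was not tested.

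The kinase partners followed their cyclins in part. CDK2, the partner of cyclins E and A, fell over both lines, with a fitted log2 fold change of −1.82 ± 0.23 (edgeR's quasi-likelihood test, adjusted p = 0.0112) and values of −1.76 for MIA PaCa-2 and −1.89 for PANC-1. CDK1, the partner of cyclins A and B, fell as well, with a fitted value of −1.33 ± 0.21 (adjusted p = 0.0181 in the same edgeR test). Its counts were 2048 and 884 in the MIA PaCa-2 libraries and 4304 and 2089 in those of PANC-1. CDK4 had nearly equal counts without and with CBC (3399 and 3400, 4198 and 4148), and its log2 fold changes were −0.15 and −0.28. CDK6 was at −0.29 in MIA PaCa-2 and −1.22 in PANC-1 cells and did not pass over both lines (adjusted p = 0.164 in edgeR). Over both lines the CDKs of the S and M phase cyclins were thus called, 2 of 4 against 2.45% of all genes. Those of the D cyclins were not. Within the lines, 2 of the 4 were called lower in MIA PaCa-2 (against 8.97%) and 3 in PANC-1 (against 7.03%). CDK6 was among those 3. A difference between the kinases of the S and M phase cyclins and those of the D cyclins was not tested.

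Of the 7 inhibitor proteins that bind CDKs or their cyclin complexes, CDKN2A and CDKN2B had 0 counts in all 4 libraries, and 5 were tested. CDKN1A, which encodes p21, had 30 counts in the MIA PaCa-2 control and 933 after CBC, and 1007 in the PANC-1 control and 1955 after CBC. The PANC-1 control, at 44.3 CPM, was thus near the 37.7 CPM that MIA PaCa-2 cells had with CBC. The log2 fold changes of CDKN1A were 4.72 and 0.69, and over both lines it did not pass in edgeR's quasi-likelihood test (adjusted p = 0.154). CDKN1B, which encodes p27, was at 0.54 and 0.37 (adjusted p = 0.277). CDKN2C, an inhibitor of CDK4 and CDK6, fell, with a fitted value of −2.20 ± 0.25 (edgeR's quasi-likelihood test, adjusted p = 0.00865). It was the 1 call among the 5 by this test, against 2.45% of all genes. DESeq2's Wald test called 1 of the 5 higher and 1 lower, against 579 higher and 717 lower of all 16381 genes. The genes behind these DESeq2 calls are not named here. Within the lines, CDKN1C, which encodes p57, was past the threshold in both, at 1.17 in MIA PaCa-2 (29 and 75 counts) and 1.05 in PANC-1 (85 and 214 counts), and CDKN2D was at −1.25 and −0.76. Both were named after their values were seen, and neither passed over both lines in edgeR's quasi-likelihood test (adjusted p = 0.180 and 0.181).

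Among 18 genes of the E2F, pocket protein, DREAM and NF-Y machinery that transcribes cyclins, 7 fell over both lines by edgeR's test, against 2.45% of all genes tested, and the median log2 fold change was −0.72 in MIA PaCa-2 and −0.59 in PANC-1 cells. Within the lines, 5 of the 18 were called lower (against 8.97%) and 1 higher (against 11.5%) in MIA PaCa-2. In PANC-1, 7 were called lower (against 7.03%) and 0 higher (against 7.71%). E2F1, an activator of the E cyclin genes, fell, with a fitted log2 fold change of −2.20 ± 0.25 (edgeR's quasi-likelihood test, adjusted p = 0.00841). The fitted values of E2F2, at −2.85 ± 0.43 (adjusted p = 0.0171) and of E2F8, a repressor of the family, at −2.43 ± 0.34 (adjusted p = 0.0147) were called as well. MYBL2 and FOXM1, the activators of the mitotic cyclin genes, fell, at −1.42 ± 0.29 (adjusted p = 0.0364) and −1.03 ± 0.20 (adjusted p = 0.0330). Their log2 fold changes were −0.87 each in MIA PaCa-2 cells, close to those of CCNB1 and CCNB2 there, and −1.99 and −1.21 in PANC-1 cells. The genes of the NF-Y subunits NFYA and NFYB, named for the CCAAT boxes in the promoters shown, were at 0.25 and −0.42 in MIA PaCa-2 cells and −0.06 and −0.48 in PANC-1 cells.

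For cyclin destruction, 1 of 10 cullin ligase genes and 1 of 11 genes of the anaphase-promoting complex (APC/C) fell over both lines, against the 2.45% of all genes. Within the lines, 3 of the 10 cullin ligase genes were called lower in MIA PaCa-2 (against 8.97%) and 1 in PANC-1 (against 7.03%), and 1 and 3 of the 11 APC/C genes were. SKP2, which recruits p27 and cyclin E to a cullin ligase, fell, with a fitted log2 fold change of −1.80 ± 0.25 (edgeR's quasi-likelihood test, adjusted p = 0.0144) and was the call among the cullin ligase genes. FBXO5, an inhibitor of the APC/C, fell, at −1.64 ± 0.23 (adjusted p = 0.0150). CDC20, the mitotic activator of this complex, was at −0.33 in MIA PaCa-2 and −1.30 in PANC-1 cells (adjusted p = 0.131). Of 8 genes that activate CDKs, 0 were called over both lines by edgeR's test, with 1 at an unadjusted p under 0.05, and 1 was called lower by DESeq2. This was CDC25A in each case (adjusted p = 0.0659 by edgeR), a gene named after its value was seen. Within the lines, 1 of these 8 genes was called higher (against 11.5%) and 1 lower (against 8.97%) in MIA PaCa-2. In PANC-1, 0 were called higher (against 7.71%) and 1 lower (against 7.03%). Of all 16381 genes tested, 3428 had an unadjusted p under 0.05 in edgeR's test, in either direction. DESeq2 called 717 of the 16381 genes lower. PKMYT1, which phosphorylates CDK1 to hold it inactive, fell, at −1.46 ± 0.28 (adjusted p = 0.0309), 1 call of the 2 inhibitory kinases.

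Of 15 other cyclins, 14 were tested over both lines, with 1 called higher and 1 called lower, against 2.26% and 2.45% of all genes. In MIA PaCa-2 3 of the 14 were called higher (against 11.5%) and 1 lower (against 8.97%). In PANC-1 1 was called higher (against 7.71%) and 1 lower (against 7.03%). Their medians were 0.19 in MIA PaCa-2 and 0.09 in PANC-1 cells. CCNG2, a cyclin linked to cell cycle arrest, had 195 and 694 counts in the MIA PaCa-2 libraries without and with CBC and 132 and 522 in those of PANC-1, and it rose by 1.70 ± 0.30 on the log2 scale over both lines (edgeR's quasi-likelihood test, adjusted p = 0.0240). CCNF, which encodes an F-box cyclin of G2, fell, at −1.43 ± 0.22 (adjusted p = 0.0172). All 8 landmarks of the S and M phases that were listed fell over both lines, against 2.45% of all genes, among them PCNA, at −2.01 ± 0.24 (adjusted p = 0.00971), and TOP2A, at −1.66 ± 0.19 (adjusted p = 0.00835). Their medians of −1.18 in MIA PaCa-2 and −1.43 in PANC-1 cells were near those of the 8 cyclins.

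**Figure D5:**
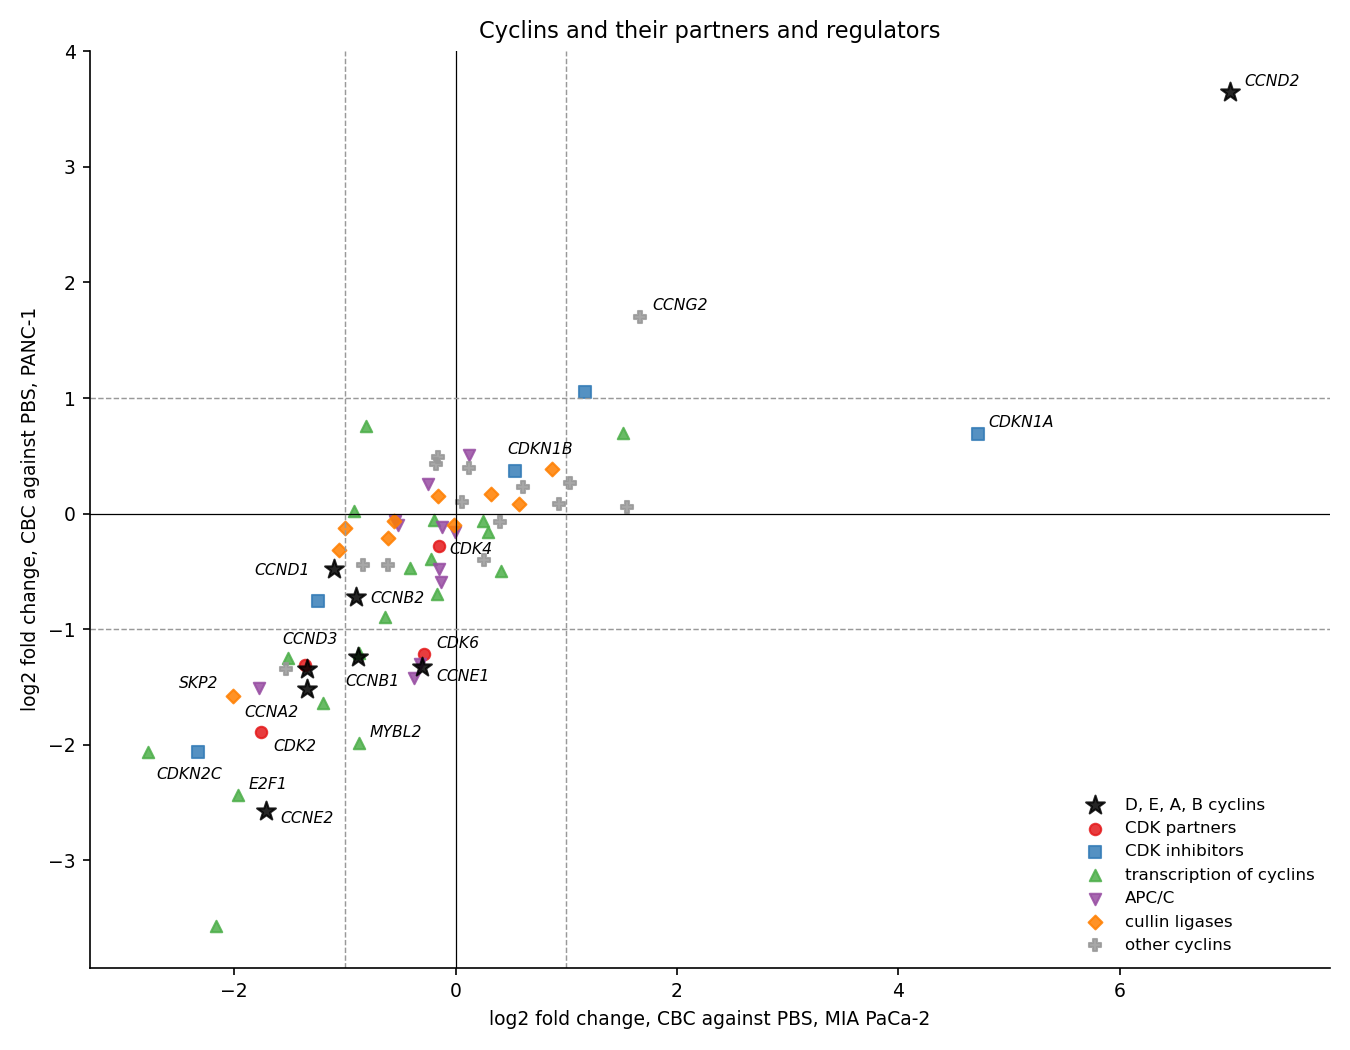
Each point is 1 gene, with its log2 fold change, CBC against PBS, in MIA PaCa-2 cells on the x axis and in PANC-1 cells on the y axis, shape and colour by gene list, and dashed lines at −1 and 1. Of the 8 cyclins (stars), 7 lie to the lower left, with CDK2 (−1.76, −1.89) and E2F1 (−1.97, −2.44) near CCNE2, while CCND2, CDKN1A and CCNG2 lie to the upper right.

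The genes whose pattern over the 4 libraries was most like that of each cyclin were sought among the 10068 genes whose mean reached 10 CPM, by the root mean square difference of centred log2 CPM. The nearest gene to CCNA2 was CCDC74A, at a difference of 0.01, followed by DLGAP5 and WDHD1, each at 0.06. CCNB1 was nearest to GEN1 (0.05), SUV39H2 (0.06) and AURKA (0.07), and CCNB2 to USP1 (0.01), MALSU1 (0.02) and PHF19 (0.03). For the E cyclins the nearest were CDC20 (0.03), FZD2 (0.07) and ENDOG (0.07) to CCNE1, and RRM2 (0.08), BRIP1 (0.12) and E2F1 (0.13) to CCNE2. Like CCNE1, CDC20 was lower mainly in PANC-1 cells.

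For the D cyclins, UBR7 (0.04) and RMI2 (0.07) were among the nearest to CCND3, and FUT8 (0.09), GAS2L3 (0.09) and ERGIC1 (0.10) to CCND1. Genes under the minimum mean of 10 CPM, where CCND2 itself lies, were not searched. Among those searched CCND2 had no close match. Its nearest gene was ATF3, a stress-induced transcription factor, at a difference of 0.68, with 3.87 CPM in the MIA PaCa-2 control, 151 CPM after CBC, 3.91 CPM in the PANC-1 control and 58.5 CPM after CBC. KCP (0.99) and KLHDC7B (1.07) followed. Among the cyclins themselves the closest pair was CCND3 and CCNA2, at 0.12, followed by CCNB1 and CCNB2 at 0.18. With 4 libraries many genes can share such a pattern, and the likeness was not tested.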

How the data were processed

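Reads were trimmed by the authors with cutadapt 2.7, mapped by STAR to GRCh38 and assigned by HTSeq to the genes of Ensembl release 89. The versions of the aligner and counter and the strand setting are not given in the sources used here. What was deposited for the series is a table of raw counts, not normalized. The deposited normalized signal of each library equals CPM from these counts after edgeR's TMM scaling (largest relative difference 6.84e-09), so the counts were used.

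Symbols were matched for 57392 of 58233 identifiers, with positions and exon lengths from GENCODE release 44 on GRCh38. For log2 fold changes, edgeR 4.0.16 was run in R 4.3.3 with a prior count of 2 and TMM factors from all 4 libraries, and intervals were computed with scipy 1.17.1. Depth was 21742775 to 27903667 counts. The test across lines was edgeR's quasi-likelihood test on genes kept by filterByExpr, with the cell line, or for the line difference the treatment, as a block; its spread comes from only these 4 libraries, with a common coefficient of variation of 23.0%. Libraries were paired by cell line, and their deviations from the treatment means correlated at 0.923 over 16381 genes. Scripts were tested on simulated data.

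All 8 cyclins were named in every comparison. From 9 lists of related genes written from general knowledge, at most 4 genes per list called over both lines, those with the largest change, were named, plus 11 direct partners and regulators. For likeness, the 3 nearest genes were named, except 1 that is not reported here. Members and lists were chosen with earlier results of these data known. Alternatives changed scaling, prior count, filter, block, tool (DESeq2 1.42.0), input (deposited CPM) and transcript length.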

Additional observations from a re-analysis of the deposited data

How the results depend on the processing

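No replication exists within a line, and dose, line and library cannot be told apart beyond the 4 libraries. Depth limits CCND2 in both controls. The numbers of cyclins past the threshold in each line and at baseline, and the median of the cyclins in each line, kept their value or direction under the scalings, prior counts, filters and inputs tried, except that with a minimum of 5 CPM, which CCND2 does not reach in PANC-1 cells, 5 rather than 6 cyclins were past it there. With library totals in place of TMM, the median of the 7 cyclins between the PBS libraries was −0.13, a shift that the median of all genes shared (from 0.10 to −0.03). Without the replicate block, 0 cyclins were called for CBC, with 5 at an unadjusted p under 0.05, and 0 of all genes, with 354 at that level; for the line difference 1 cyclin, CCND1, was called, and CCNE1 (adjusted p = 0.172) and CCND2 (adjusted p = 0.341) were not, in edgeR's quasi-likelihood test. The fitted line difference of CCNE2 was then 0.0565, and that of CCND3 was 0.00042 when any gene with a count was kept, both reversed in sign from −0.21 and −0.06 and not called. With the block, the calls of CCND2, CCND3, CCNE2, CCNA2 and CCNB1 for CBC were kept under every alternative, with adjusted p of at most 0.0389. CCND1 and CCNB2 were called as well by DESeq2's Wald test (adjusted p = 0.0322 and 0.00592) and by edgeR with any counted gene kept (0.00469 and 0.0152). All genes called for CBC numbered 771, and 2063 with any counted gene kept, 1296 by DESeq2, 567 with DESeq2's size factors in edgeR and 737 with library totals. With the length of the longest transcript, 2 of 112 pairs changed order, CCND3 with CCNE1 and CCNA2 with CCNB2, both in the MIA PaCa-2 control. The difference of the CBC response between lines was recomputed with library totals, an alternative chosen after seeing the data, and 6 of the 8 intervals again left out 0.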
